A study of Rattus norvegicus with 8 samples.

Results

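Immune cells make up a small share of liver RNA, and 34 of their marker genes were followed here in the livers of young rats whose mothers had received a contaminant mixture. The markers were listed by cell type and chosen with earlier results of these arrays known. They comprised 16 macrophage markers, 12 lymphocyte markers and 6 neutrophil markers, out of 27530 genes or unnamed probes on the array. Each gene was represented by its brightest probe in the liver channel. A probe was found for 33 of the 34 markers by its transcript accession. No probe was named Mpo, the gene of the neutrophil peroxidase, and it was not analysed here.

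All animals were male Sprague-Dawley rats aged 21 days that had stayed with their birth mothers and were not cross-fostered. Dams of the control group (C) received corn oil only through gestation and lactation. Dams of the mixture group (0.5MAhR) received 0.5 mg/kg/day of a mixture (0.5M) made of methyl mercury, polychlorinated biphenyls and organochlorine pesticides. Added to it were chemicals that activate the aryl hydrocarbon receptor (AhR), namely polychlorinated dibenzofurans, polychlorinated dibenzodioxins and non-ortho-PCBs, and the combination came to 6.3 ng/kg/day TCDD-TEQ, its toxic equivalent in tetrachloro-dibenzodioxin. Liver RNA of 2 pups, drawn at random within a group, was pooled per array, giving 4 control and 4 mixture arrays. The series used 72 arrays, of which these 8 were analysed here. Every array carried the liver sample in Cy5 and a common reference in Cy3, an RNA mix of 14 rat cell lines, and the value used was the log2 ratio of liver over reference. No source used here gave the litters of the pups, so what the p-values reflect is the variation among pools.

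Kupffer cells are the resident macrophages of the liver sinusoids. They clear bacteria, complement-coated particles and aged blood cells from portal blood, and supply much of the circulating complement component C1q. The liver also holds natural killer cells and T cells, which kill through perforin and granzymes and recruit other cells with chemokines such as CCL5. Neutrophils pass through from the blood and carry the calcium-binding pair S100A8 and S100A9 and antimicrobial defensins in large amounts. In RNA from whole liver, fewer cells of a type and less RNA per cell cannot be told apart.

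The regions before the start sites of the markers are shown because the lists are defined by lineage, and PU.1 is a transcription factor that myeloid cells use at many of their genes. The 250 bases before a start site were available for 26 of the 34 markers in RefSeq sequences of assembly GRCr8. C1qc, Ccl5, Cd4, Cd79b, Defa5, Elane, Il2rb and S100a8 had no entry. The core GAGGAA, searched on both strands, was present in 16 of the 26 windows (61.5%) and in 23.3% of the 33469 windows of all genes. By list these were 11 of 15 macrophage windows, 3 of 3 neutrophil windows and 2 of 8 lymphocyte windows. Of the 15 windows that ended exactly at the annotated gene start, 7 held the core. The other windows did not end there, and those of Cd3d, without the core, and Marco, with it, lay wholly inside the annotated gene. The AhR binding core GCGTG was found on either strand in 3 of the 26 windows (11.5%) and in 25.9% of all windows. A match describes letters and is not a binding site. The windows of the complement chain C1qb, the secreted macrophage protein Cd5l, the lysosomal glycoprotein Cd68 and the neutrophil gene S100a9 are shown as examples with the core, chosen after the search from those ending at the gene start. That of Clec4f, a lectin of Kupffer cells, is shown as 1 without it. Capitals mark GAGGAA or its reverse complement, which overlapped no match of GCGTG in these windows. The sequences read 5′ to 3′ towards the gene.
C1qb, chr5:154407828-154408077, minus strand: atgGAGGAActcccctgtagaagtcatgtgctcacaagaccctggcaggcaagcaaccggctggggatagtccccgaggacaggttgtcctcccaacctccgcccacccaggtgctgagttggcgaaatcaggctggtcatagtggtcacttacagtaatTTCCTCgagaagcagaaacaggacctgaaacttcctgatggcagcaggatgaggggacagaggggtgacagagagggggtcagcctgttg
Cd5l, chr2:175088665-175088914, plus strand: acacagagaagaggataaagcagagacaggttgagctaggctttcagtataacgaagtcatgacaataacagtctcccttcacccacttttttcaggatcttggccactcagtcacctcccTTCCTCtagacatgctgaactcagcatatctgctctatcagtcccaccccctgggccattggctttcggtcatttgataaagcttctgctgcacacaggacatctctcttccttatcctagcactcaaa
Cd68, chr10:54882442-54882691, minus strand: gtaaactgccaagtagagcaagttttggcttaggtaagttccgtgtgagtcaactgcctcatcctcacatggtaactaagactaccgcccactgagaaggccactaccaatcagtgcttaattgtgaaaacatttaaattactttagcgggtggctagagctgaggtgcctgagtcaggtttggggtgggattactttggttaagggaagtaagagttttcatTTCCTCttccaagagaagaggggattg
S100a9, chr2:178490623-178490872, minus strand: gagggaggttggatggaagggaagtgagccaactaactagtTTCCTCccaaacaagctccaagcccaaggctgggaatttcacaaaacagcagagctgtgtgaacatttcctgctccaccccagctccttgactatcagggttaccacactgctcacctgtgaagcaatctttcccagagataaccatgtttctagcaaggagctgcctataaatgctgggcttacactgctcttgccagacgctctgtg
Clec4f, chr4:117696408-117696657, minus strand: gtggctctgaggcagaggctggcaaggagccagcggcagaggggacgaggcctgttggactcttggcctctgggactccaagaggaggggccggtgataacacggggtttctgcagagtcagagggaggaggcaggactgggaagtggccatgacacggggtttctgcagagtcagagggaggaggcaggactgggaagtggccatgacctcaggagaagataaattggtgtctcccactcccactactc

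A marker counted as detected on an array when most of its spots carried the scanner software's mark for signal well above background in Cy5. Of the macrophage markers 14 of 16 were detected on all 8 arrays, against 4 of 12 lymphocyte markers and 3 of the 5 neutrophil markers with a probe. Of all 27530 genes or unnamed probes 9060 were, and the differences between the lists were not tested. Testing required detection on 3 or more arrays within 1 group, which 23 of the 33 markers met, 14 of macrophages, 6 of lymphocytes and 3 of neutrophils. Perforin (Prf1) and the B cell receptor chain Cd79b entered the test through 1 group only, Prf1 through the mixture arrays and Cd79b through the control arrays, in each case the group with the higher mean, so that their differences are not support for a change.

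**Figure D1:**
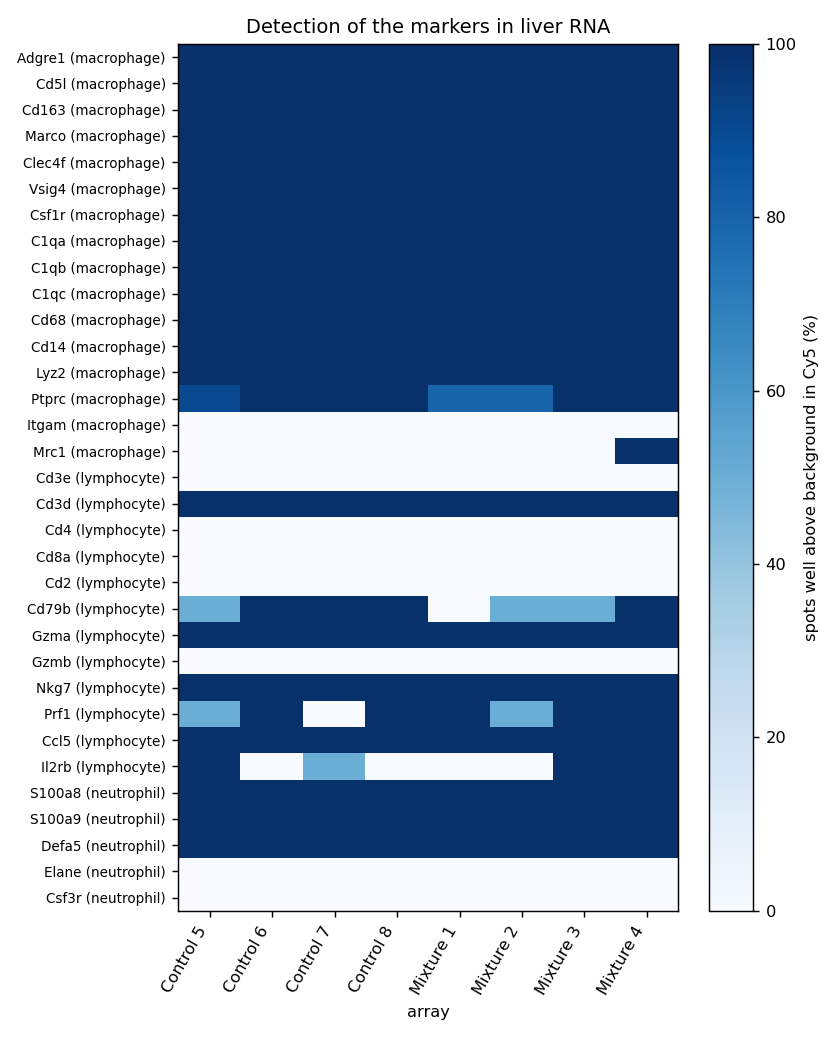
Share of spots well above background in Cy5 (colour, in percent) for each of the 33 markers with a probe (rows, with the list in brackets) on each of the 8 arrays (columns). Most macrophage rows are dark throughout, whereas Itgam, Cd3e, Cd4, Cd8a, Cd2, Gzmb, Elane and Csf3r are blank on every array.

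The 10 markers that were not tested had background-subtracted Cy5 signals between -4 and 28.2 intensity units. The integrin Itgam (CD11b) of circulating myeloid cells, the T cell genes Cd3e, Cd4 and Cd8a, the T and natural killer cell adhesion gene Cd2, granzyme B (Gzmb), neutrophil elastase (Elane) and the granulocyte colony-stimulating factor receptor Csf3r were detected on no array. The mannose receptor Mrc1, which liver sinusoidal endothelial cells also carry, was detected only on mixture replicate 4, and the interleukin receptor chain Il2rb on 1 control and 2 mixture arrays. For these genes no difference between the groups was measurable at this signal. In the reference channel 5 of the 10 were detected on all 8 arrays, namely Cd3e, Cd2, Gzmb, Mrc1 and Il2rb.

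Levels against the reference varied widely among the tested markers, and 18 of 23 were above it. The highest log2 ratios belonged to Clec4f at 6.27 ± 0.13 (SD, n = 4) in control livers and the complement chain C1qa at 5.49 ± 0.16 (SD, n = 4). The lowest were those of lysozyme (Lyz2) at -3.14 ± 0.36 (SD, n = 4) and the T cell receptor chain Cd3d at -2.40 ± 0.062 (SD, n = 4). The natural killer cell granule gene Nkg7 and the pan-leukocyte phosphatase Ptprc (CD45) were also below the reference, at -2.02 ± 0.36 (SD, n = 4) and -1.07 ± 0.075 (SD, n = 4). Lyz2 was nevertheless bright in Cy5, since only C1qb, Clec4f and C1qa of the macrophage markers exceeded it. For 6 tested markers, Adgre1, Cd5l, Cd163, Gzma, S100a9 and Defa5, the reference signal was well above background on no array, so their ratio is set against a denominator near background.

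**Figure D2:**
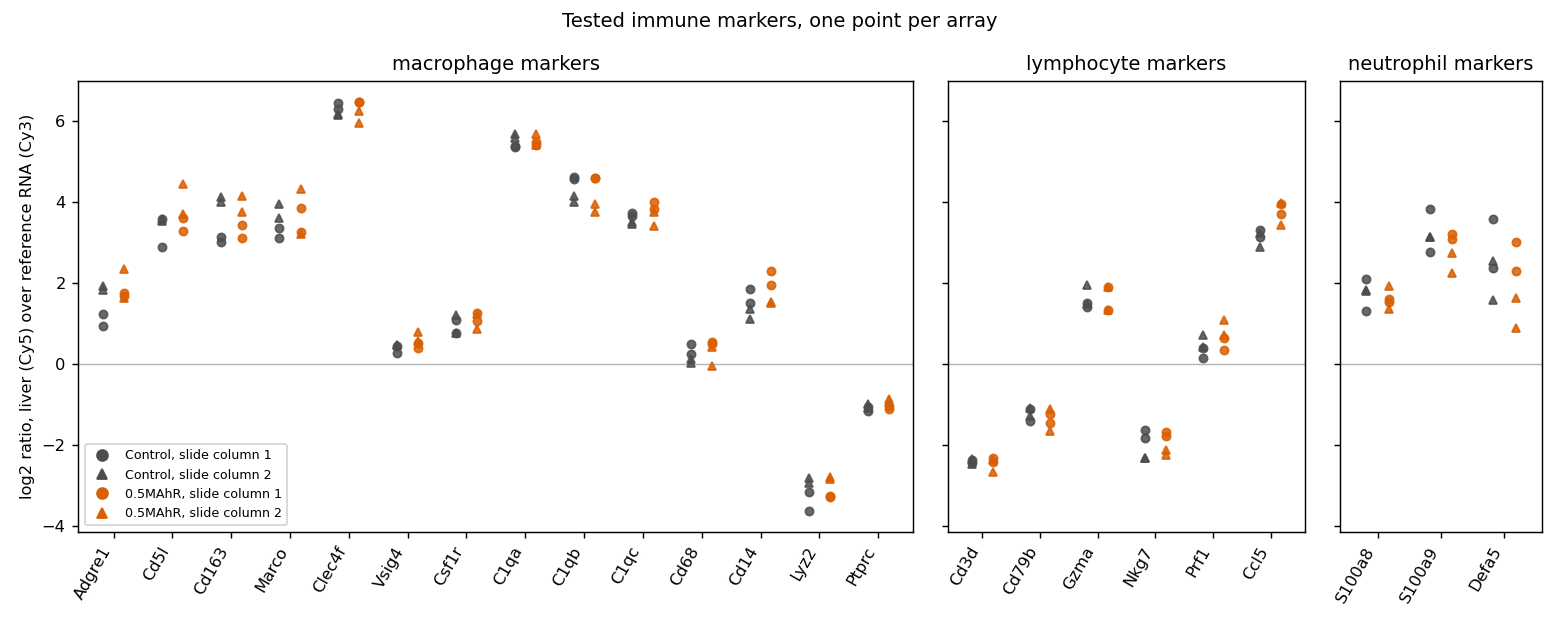
Log2 ratio of liver over reference RNA (vertical axis) for the 23 tested markers (horizontal axis, by list), 1 point per array, with the group in colour and the slide column by symbol. Clec4f lies near 6 in both groups and Lyz2 near -3. The groups overlap for every marker shown except Ccl5.

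The 8 arrays came from 1 slide and lay in 2 columns, column 1 with control replicates 5 and 7 and mixture replicates 2 and 4, column 2 with the others. The median Cy5 signal was 81 to 94 units over a median background of 68 to 73, and 42.9% to 49.2% of the spots passed the background mark in that channel. Between the columns 56.9% of the 10563 tested genes differed at an adjusted p under 0.05, and 11 of the 23 tested markers did. Slide column was therefore a term of every fit given here unless stated. Liver identity was clear, since all 12 hepatocyte markers were tested and their mean log2 ratio lay between 6.97 and 7.26 on every array. The treated livers stood apart in Cyp1a1, the classic AhR target, at a log2 ratio of 0.90 in control and 4.93 in mixture livers (difference 4.04, SE 0.31, limma adjusted p = 0.00279). It was 1 of 5 genes past the threshold among 10563 (0.0473%).

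None of the 23 tested markers passed the adjusted threshold of 0.05 between the groups, where 0.0473% of all genes did. In limma 4 markers had an unadjusted p under 0.05, all higher in the mixture group, against 6.34% of all genes tested in either direction and 3.50% in that direction. No marker that was lower had such a p in this fit, where 2.84% of all genes did. The 4 were Ccl5, Cd14, Adgre1 and Prf1, the last of which entered the test through the mixture arrays only. Among the 21 markers detected on all 8 arrays, Ccl5, Cd14 and Adgre1 had such a p, where 589 of 9060 genes did. Of the 23, 16 had a mean difference above 0, where 46.8% of all genes did. The count of 4 was 1 (Ccl5) without slide column in the fit, where 1.53% of all genes had such a p and 0.00947% passed after adjustment. It was also 1 (Ccl5) with slide row in place of column and with median centring, where 76 and 186 of 10563 genes had such a p. Within column 2 it was 2 (Ccl5 and S100a9, the latter lower), beside 591 genes. Leaving out mixture replicate 1 made it 8, beside 717 genes. Leaving out mixture replicate 3 or 4 made it 2 (Ccl5 and Cd14), with the counts over all genes not given here. It was 5 without control replicate 5, with S100a9 and Defa5 lower, beside 613 genes. In Cy5 alone it was 6, with S100a9 lower, beside 746 genes. The median difference was 0.14 on the log2 scale over the 14 macrophage markers, 0.05 over the 6 lymphocyte markers and -0.40 over the 3 neutrophil markers, beside -0.01 over all genes.

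**Figure D3:**
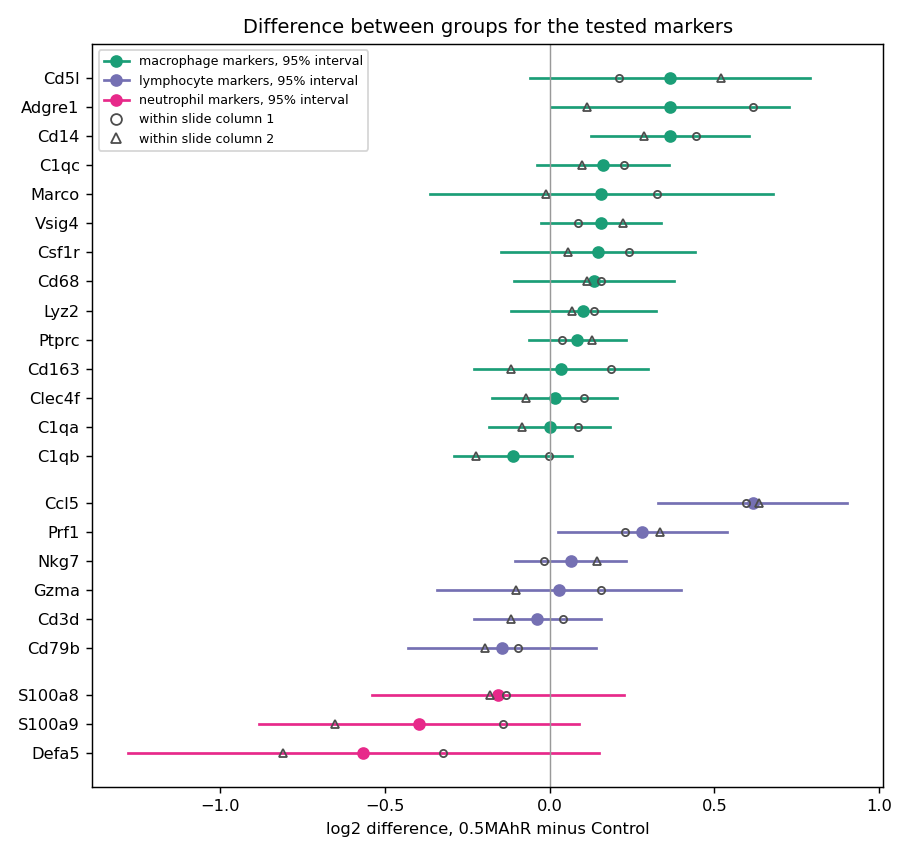
Log2 difference between the mixture and control groups (horizontal axis) for each tested marker (rows), with the 95% interval of the fit as a line and the difference within each slide column as open symbols. Only the intervals of Adgre1, Cd14, Ccl5 and Prf1 lie wholly above 0, and no interval lies wholly below it.

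Ccl5, a chemokine of cytotoxic lymphocytes that draws T cells and monocytes, showed the largest difference in size among the tested markers with all 8 arrays and slide column fitted. Under 7 of the 22 alternatives the largest difference in size was that of another marker, Defa5 in 5, Prf1 with processed signals and Adgre1 within column 1. Its log2 ratio was 3.31, 3.23, 3.14 and 2.89 in control replicates 5, 6, 7 and 8, and 3.43, 3.71, 3.97 and 3.94 in mixture replicates 1, 2, 3 and 4. Every mixture array was above every control array, which held for 1.32% of all genes in either direction and 0.786% in that direction, and for Ccl5 alone among the 23 markers. The group means were 3.14 ± 0.18 (SD, n = 4) and 3.76 ± 0.25 (SD, n = 4), a difference of 0.62 (SE 0.13, 95% interval 0.33 to 0.90), or 1.53-fold. In limma the unadjusted p was 0.000819 and the adjusted p 0.288. The difference was 0.60 in column 1 and 0.64 in column 2, and was 0.50 to 0.72 when 1 array was left out. Over all 22 alternatives the unadjusted p stayed between 0.000225 and 0.0207 and the adjusted p between 0.172 and 1.000. The background-subtracted Cy5 signal of its probe was 370 to 433 units on control arrays and 390 to 926 on mixture arrays, with the lowest mixture array inside the control range. The reference signal at the probe differed by -0.014 (log2) between the groups.

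Prf1, the pore-forming protein of killer lymphocytes, had log2 ratios of 0.39, 0.72, 0.16 and 0.43 in control replicates 5, 6, 7 and 8, and 0.73, 0.35, 1.09 and 0.65 in mixture replicates 1, 2, 3 and 4. The groups overlapped over all arrays and within column 1. The difference was 0.28 (SE 0.11, limma unadjusted p = 0.0347, adjusted p = 0.729). Column 1 gave 0.23 and column 2 gave 0.33. It was detected on 2 of 4 control and 3 of 4 mixture arrays, with Cy5 signals of 18.2 to 69.8 units over background, and its difference was 0.97 with the scanner software's processed signals and 0.18 with median centring.

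The other 4 tested lymphocyte markers had intervals that included 0. Nkg7, the brightest of these, had log2 ratios of -1.63, -2.32, -1.82 and -2.32 in control replicates 5, 6, 7 and 8, and -2.12, -1.69, -2.24 and -1.79 in mixture replicates 1, 2, 3 and 4. All column 1 arrays were above all column 2 arrays (-0.52 in column 2 against column 1, limma adjusted p = 0.000342), while the groups differed by 0.063 (95% interval -0.11 to 0.23). Granzyme A (Gzma), a serine protease of cytotoxic granules, measured 1.40, 1.94, 1.49 and 1.49 in control replicates 5, 6, 7 and 8, and 1.34, 1.32, 1.89 and 1.89 in mixture replicates 1, 2, 3 and 4, and differed by 0.028 (95% interval -0.34 to 0.40). Cd3d, of the T cell receptor complex, differed by -0.038 (95% interval -0.23 to 0.15), and Cd79b by -0.15 (95% interval -0.43 to 0.14).

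**Figure D4:**
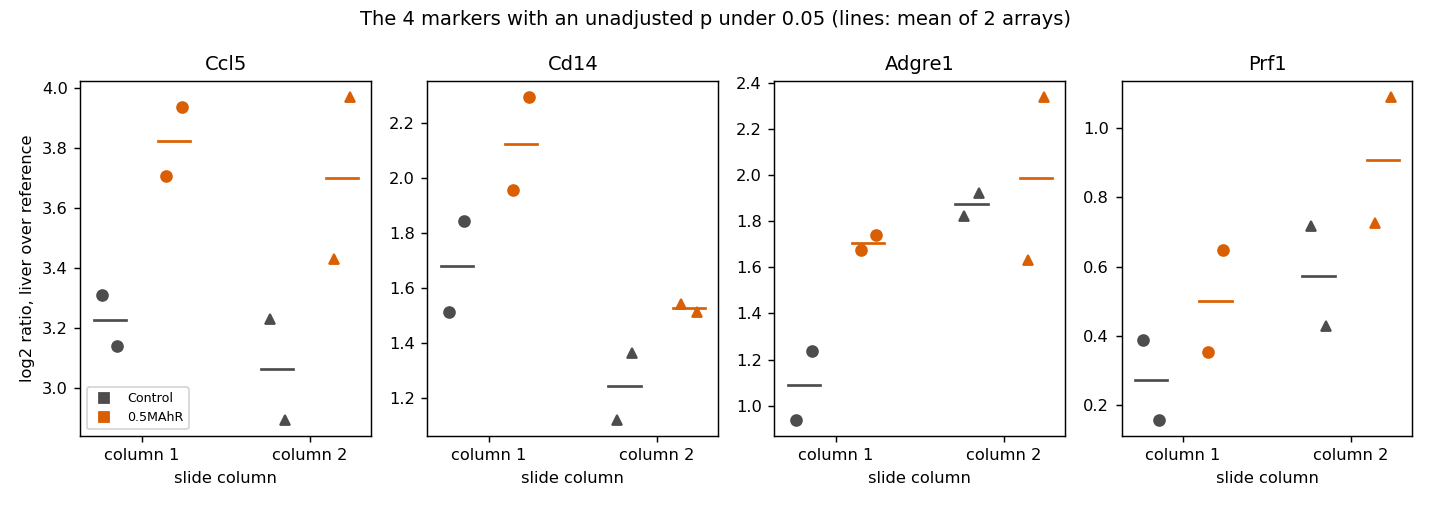
Log2 ratio of liver over reference RNA (vertical axes, with a scale of their own that does not start at 0) on each array for Ccl5, Cd14, Adgre1 and Prf1, split by slide column, with the mean of 2 arrays as a line. Ccl5 and Cd14 separate the groups within both columns, whereas the mixture points of Adgre1 in column 2 lie on either side of the control points.

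Among the macrophage markers, 12 of 14 had a difference above 0, but the sizes were small and 9 of the 14 had that sign within both columns. Cd14, the co-receptor for bacterial lipopolysaccharide, had log2 ratios of 1.51, 1.12, 1.84 and 1.36 in control replicates 5, 6, 7 and 8, and 1.54, 1.95, 1.51 and 2.29 in mixture replicates 1, 2, 3 and 4. Within each column both mixture arrays were above both control arrays, as held for 6.69% of all genes in either direction and 3.29% in that direction, whereas over all 8 arrays the groups overlapped. The difference was 0.37 (SE 0.11, 95% interval 0.12 to 0.61, limma unadjusted p = 0.00730, adjusted p = 0.470), or 1.29-fold, with 0.45 in column 1 and 0.29 in column 2. It was 0.28 to 0.43 when 1 array was left out. Without slide column the limma unadjusted p was 0.120.

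Adgre1, the adhesion receptor used to mark mature macrophages, had log2 ratios of 0.94, 1.82, 1.24 and 1.92 in control replicates 5, 6, 7 and 8, and 1.63, 1.67, 2.34 and 1.74 in mixture replicates 1, 2, 3 and 4. Control replicates 5 and 7 were lowest, and mixture replicate 3 was highest. The difference was 0.37 (SE 0.16, limma unadjusted p = 0.0484, adjusted p = 0.780), made up of 0.62 in column 1 and 0.11 in column 2. It was 0.25 without control replicate 5, 0.56 without mixture replicate 1 and 0.65 with processed signals.

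The remaining Kupffer cell surface and secreted markers did not separate the groups. Cd5l, a secreted protein that supports macrophage survival, differed by 0.37 (95% interval -0.059 to 0.79), and its other probe by 0.36. Without mixture replicate 3 the difference of Cd5l was 0.18. Marco, a scavenger receptor for bacteria, differed by 0.16 (95% interval -0.36 to 0.68), and the complement receptor Vsig4 by 0.16 (95% interval -0.025 to 0.34). Cd163, which takes up haptoglobin-bound haemoglobin, differed by 0.035 (95% interval -0.23 to 0.30). Its level was 0.83 higher in column 2 than in column 1 (limma adjusted p = 0.000284). Clec4f measured 6.30, 6.18, 6.45 and 6.15 in control replicates 5, 6, 7 and 8, and 5.95, 6.47, 6.24 and 6.48 in mixture replicates 1, 2, 3 and 4. The groups overlapped, and the difference was 0.015 (95% interval -0.18 to 0.20).

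The 3 chains of complement C1q were among the brightest immune genes and with all 8 arrays and slide column fitted the 95% interval of each group difference included 0. C1qa measured 5.38, 5.67, 5.34 and 5.58 in control replicates 5, 6, 7 and 8, and 5.39, 5.48, 5.68 and 5.41 in mixture replicates 1, 2, 3 and 4. C1qb measured 4.57, 3.99, 4.60 and 4.16 in control replicates 5, 6, 7 and 8, and 3.76, 4.59, 3.95 and 4.59 in mixture replicates 1, 2, 3 and 4. C1qc measured 3.66, 3.47, 3.72 and 3.50 in control replicates 5, 6, 7 and 8, and 3.41, 3.82, 3.75 and 4.01 in mixture replicates 1, 2, 3 and 4. All 4 arrays of column 1 lay above all 4 of column 2 for C1qb, and the groups overlapped for each chain. The differences were -0.00041 for C1qa (95% interval -0.18 to 0.18), -0.11 for C1qb (95% interval -0.29 to 0.067) and 0.16 for C1qc (95% interval -0.039 to 0.36). The reference signal at the same probes was higher on the mixture arrays, by 0.17, 0.23 and 0.087 (log2) for C1qa, C1qb and C1qc. In limma these reference differences had unadjusted p of 0.0158, 0.00434 and 0.0377, where 3.63% of genes had one under 0.05. None of the 3 passed after adjustment, where 0.00947% of genes did. In Cy5 alone the liver differences were 0.17, 0.14 and 0.20, with a limma unadjusted p of 0.0224 (adjusted p = 0.584) for C1qc. Without mixture replicate 1 the ratio of C1qc differed by 0.24 (unadjusted p = 0.0108, adjusted p = 0.462), and with processed signals by 0.013. The part of the reference channel in the C1q ratios was not tested further.

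The general macrophage and myeloid markers gave small differences. Csf1r, the receptor for the growth factor that maintains macrophages, differed by 0.15 (95% interval -0.15 to 0.44), Cd68 by 0.13 (95% interval -0.11 to 0.38), Lyz2 by 0.10 (95% interval -0.12 to 0.32) and Ptprc by 0.084 (95% interval -0.064 to 0.23). Single arrays moved these values. Without control replicate 5 Lyz2 was 0.0036 and Csf1r 0.063, and without control replicate 8 Csf1r was 0.26. Cd68 was 0.042 without mixture replicate 3 and 0.24 without mixture replicate 1 (limma unadjusted p = 0.0274, adjusted p = 0.631). The second probes of Csf1r and Ptprc were detected on no array. The median over the 14 macrophage markers was 0.17 in column 1 and 0.083 in column 2. Leaving out mixture replicate 3 made it 0.077, leaving out control replicate 5 made it 0.072, and leaving out mixture replicate 1 raised it to 0.21. The mean log2 ratio over these markers was 2.01 to 2.29 on control arrays and 2.14 to 2.51 on mixture arrays, so that the groups overlapped.

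All 3 tested neutrophil markers had a difference below 0, and none had an unadjusted p under 0.05 in limma with all 8 arrays and slide column fitted. S100a8 measured 1.30, 1.83, 2.10 and 1.81 in control replicates 5, 6, 7 and 8, and 1.36, 1.52, 1.92 and 1.61 in mixture replicates 1, 2, 3 and 4. Its partner S100a9 measured 2.75, 3.14, 3.81 and 3.13 in control replicates 5, 6, 7 and 8, and 2.24, 3.08, 2.74 and 3.20 in mixture replicates 1, 2, 3 and 4. In both genes control replicate 7 was the highest array. The differences were -0.16 for S100a8 (95% interval -0.54 to 0.23) and -0.40 for S100a9 (95% interval -0.88 to 0.090). S100a8 was -0.32 without control replicate 5 and -0.0010 without control replicate 7. S100a9 was -0.66 without control replicate 5 (limma unadjusted p = 0.000456, adjusted p = 0.284), -0.65 within column 2 (unadjusted p = 0.00913, adjusted p = 0.771) and -0.35 in Cy5 alone (unadjusted p = 0.0495, adjusted p = 0.704). Without control replicate 7 it was -0.24, and without mixture replicate 1 it was -0.25. The size of the S100a8 and S100a9 differences thus varied with single arrays. Defa5, listed in the gene table with the synonyms ratNP-1 and ratNP-2, encodes an alpha-defensin and measured 2.36, 2.54, 3.57 and 1.58 in control replicates 5, 6, 7 and 8, and 1.62, 3.00, 0.88 and 2.29 in mixture replicates 1, 2, 3 and 4. It ranged from 0.88 in mixture replicate 3 to 3.57 in control replicate 7, the widest range of any tested marker, and differed by -0.57 (95% interval -1.28 to 0.15). Leaving out control replicate 5 gave -0.86 (limma unadjusted p = 0.0138, adjusted p = 0.658), leaving out mixture replicate 2 gave -0.76 (unadjusted p = 0.0469, adjusted p = 0.821) and leaving out control replicate 6 gave -0.33. The median over the 3 genes, which was that of S100a9, was -0.14 in column 1 and -0.65 in column 2.

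Further genes of the same cells, and partners of their receptors, were taken from lists written for this work, and none of their members passed the adjusted threshold. Of 27 other Kupffer cell and macrophage genes 19 were tested, 17 with a difference above 0, at a median of 0.10. The Fc receptor Fcgr1a had the smallest unadjusted p, with a difference of 0.23 (SE 0.090, limma unadjusted p = 0.0278, adjusted p = 0.712), and the lectin Lgals3, the brightest, differed by 0.11 (SE 0.13). The mean level of this list was -0.042 to 0.081 on control arrays and -0.066 to 0.31 on mixture arrays. Of 9 partners of the CSF1 and lipopolysaccharide receptors, 6 were tested, 3 above 0 and 3 below. Lbp, the plasma protein that hands lipopolysaccharide to Cd14, differed by -0.50 (SE 0.14, limma unadjusted p = 0.00528, adjusted p = 0.425). It was -0.41 in column 1 and -0.58 in column 2, a sign opposite to that of Cd14. Myd88, the adaptor of the lipopolysaccharide receptor, differed by -0.20 (SE 0.082, limma unadjusted p = 0.0380, adjusted p = 0.737) and was picked after its value was seen. The brightest of this list, the cytokine receptor chain Csf2ra, differed by 0.056 (SE 0.10). Tlr4, the lipopolysaccharide receptor itself, was detected on no array.

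Of 21 other natural killer and cytotoxic genes 6 were tested and 5 had a difference above 0, at a median of 0.043. Xcl1, a chemokine that such cells release, differed by 0.49 (SE 0.12, limma unadjusted p = 0.00321, adjusted p = 0.390). Xcl1 was detected on 6 of the 8 arrays, with the split by group not given here. Its difference was 0.61 in column 1 and 0.37 in column 2. Gzmm, a further granzyme, differed by 0.34 (SE 0.11, limma unadjusted p = 0.0159, adjusted p = 0.617) and was picked after its value was seen. Tbx21, a transcription factor of these cells and the brightest of the list, differed by -0.049 (SE 0.082). The killer cell receptors Klrd1, Klrb1a and Ncr1 were among 12 genes of the list detected on no array, whereas the receptor Klrk1 was detected on all 8 and differed by 0.042 (SE 0.065). Of 10 partners of Ccl5 and Il2rb, 4 were tested, 1 above 0 and 3 below, with the shared receptor chain Il2rg at -0.12 (SE 0.065). The CCL5 receptors Ccr1 and Ccr3 were detected on no array.

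T cell and B cell genes were mostly below detection. Of 19 other T cell genes 4 were tested, 3 above 0, with the receptor chain Cd3g at -0.10 (SE 0.11) and Cd7, the brightest, at 0.015 (SE 0.091). Of 14 B cell and plasma cell genes 3 were tested, all below 0, with the B cell coactivator Pou2af1 at -0.18 (SE 0.15) and Fcrla at -0.086 (SE 0.079). Another 7 of that list were detected on no array. Among 17 monocyte and dendritic cell genes 7 were tested, 5 above 0, with a median of 0.19. The class II gene RT1-Bb differed by 0.50 (SE 0.24, limma unadjusted p = 0.0619, adjusted p = 0.812), at 0.95 in column 1 and 0.053 in column 2. The class II invariant chain Cd74 differed by 0.33 (SE 0.18). The monocyte receptor Ccr2 was detected on no array.

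Of 26 other neutrophil and granule genes 7 were tested, 3 above 0 and 4 below, with a median of -0.026. RatNP-3b, a further defensin gene and the brightest of the list, differed by -0.40 (SE 0.32). Defensin genes have near-identical copies, so probes may not tell Defa5 and RatNP-3b from their relatives. The oxidase subunit Ncf4 differed by 0.25 (SE 0.094, limma unadjusted p = 0.0272, adjusted p = 0.712). The granule genes Ltf, Ngp, Mmp8, Prtn3 and Ctsg were detected on no array, whereas Camp and Lcn2 were detected on all 8 and differed by -0.026 (SE 0.096) and 0.18 (SE 0.17). Of 11 mast cell, basophil and eosinophil genes 3 were tested, all below 0, with the eosinophil granule gene Prg2 at -0.24 (SE 0.16).

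The 12 hepatocyte genes had a median difference of -0.12, with 11 below 0 and none past the adjusted threshold. Their mean level was 7.19 to 7.26 on control arrays and 6.97 to 7.25 on mixture arrays, lowest on mixture replicates 1 and 3, the mixture arrays of column 2. Mixture replicate 3 also had the highest mean level of the macrophage markers (2.51), of the other macrophage genes (0.31) and of the monocyte and dendritic cell genes (1.60). Mixture replicate 1, with the lowest hepatocyte level (6.97), had the lowest macrophage marker level of the mixture arrays (2.14). Its level of the other macrophage genes (-0.066) was the lowest of any array. The part of the hepatocyte level in the immune marker differences was not tested. The haptoglobin gene Hp, the brightest of the hepatocyte list, differed by -0.22 (SE 0.097). The apolipoprotein Apoa2, the only gene of the list above 0, differed by 0.44 (SE 0.11, limma unadjusted p = 0.00296, adjusted p = 0.382). Fgb differed by -0.29 (SE 0.084, limma unadjusted p = 0.00684, adjusted p = 0.460). Cps1 differed by -0.35 (SE 0.15, limma unadjusted p = 0.0436, adjusted p = 0.770). Fgb and Cps1 were picked after their values were seen. The reference signal at the Apoa2 probe was itself higher by 0.70 (log2) on the mixture arrays.

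**Figure D5:**
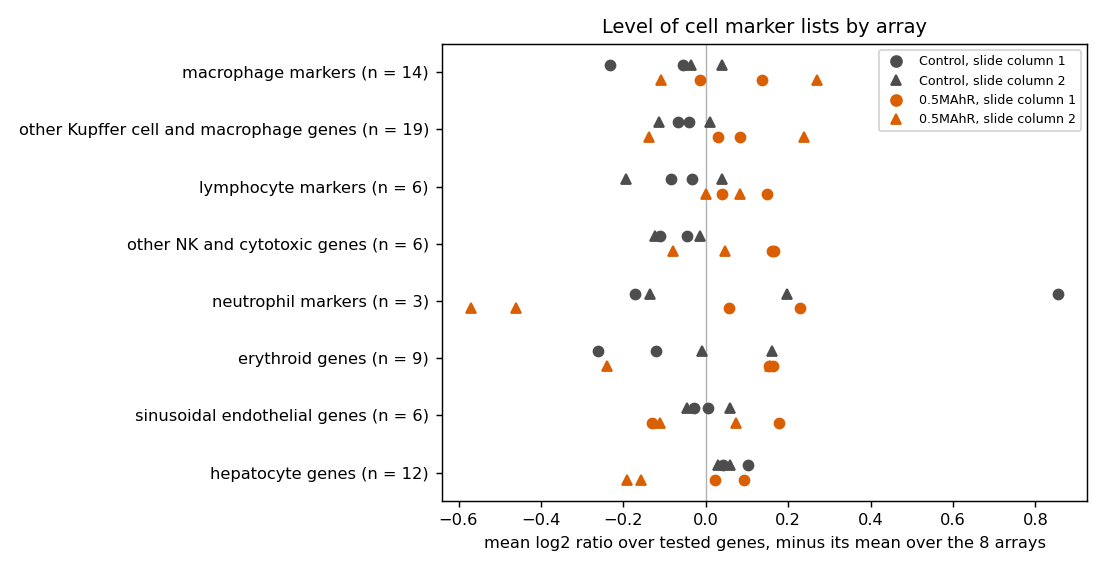
Mean log2 ratio over the tested genes of each list, minus its mean over the 8 arrays (horizontal axis), for 8 lists (rows, n = genes tested), 1 point per array. The neutrophil markers spread most of the 8 lists, from a level of 1.74 on mixture replicate 1 to 3.16 on control replicate 7, and the hepatocyte genes are lowest on both mixture arrays of column 2.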

How the data were processed

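Two-colour Agilent arrays of 8 liver RNA pools were used. Spot intensity values came from Agilent's Feature Extraction software (version 11.0.1.1), per the file headers. Taken from each array were the deposited median foreground and background intensity of both channels and the deposited marks for spots above background, saturated or outlying. The authors' deposited table of log2 ratios matched uncorrected loess-normalised values (r of 0.997 to 0.998, slope 0.995 to 1.00 per array), which settled its scale and direction. Its column medians were -0.0389 to -0.0326, and how it was centred stayed unknown. It was used only among the alternatives.

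The analysis used limma 3.58.1 (R 4.3.3). Normexp background correction had an offset of 50, arrays were normalised by loess with control spots at no weight, outlier spots (771 to 956 per array) were dropped and spots of a probe averaged. No spot was saturated. Accessions were matched to RefSeq genes of GRCr8 for names only, naming 18005 of 30367 probes, and promoter sequences came from RefSeq of that build. The brightest probe in Cy5 represented a gene, chosen before the detection filter. Group and slide column (from the array position) were fitted with lmFit and eBayes over 10563 genes, two-sided, with Benjamini-Hochberg adjustment at 0.05. The reference channel was fitted alike after quantile normalisation of Cy3. Tested on simulated data, the fit recovered 95% of log2 changes of 1 and 100% of log2 changes of 2 over 10563 genes, and smaller changes, such as those of the markers, were not simulated. The number of arrays limits the precision. Members, lists and the choice to fit slide column were made with earlier results of these data known, so lists received no test. All 34 markers are named. Array values are given for those with an unadjusted p under 0.05 or groups apart, the 3 brightest per list, the C1q chains and the S100a8 pair, and from other lists the gene with the smallest p and the brightest. Results of alternatives are in the closing section.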

Additional observations from a re-analysis of the deposited data

Results flagged for a closer look

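In 66 groups of 4 arrays, a single array that lay far from the other 3 was looked for with Dixon's ratio of gap to range, and 4 were found. Chance marks about 1 in 20 groups of 4 values drawn from 1 normal distribution. Each group here mixed arrays of both slide columns, so that this rate may not hold. Control replicate 5 was low for Cd5l, at 2.89 where the other control arrays were 3.53 to 3.57, and for Vsig4, at 0.27 against 0.45 to 0.47. Both are Kupffer cell markers, and this array also had the lowest mean level of the macrophage markers, a mean that includes both genes. Mixture replicate 3 was high for Adgre1, at 2.34 where the other mixture arrays were 1.63 to 1.74. Control replicate 6 was high for Gzma, at 1.94 against 1.40 to 1.49 on the other control arrays.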

How the results depend on the processing

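No marker passed the adjusted threshold under any of 22 alternatives, the smallest adjusted p in limma being 0.172. Of 504 recomputed marker differences 471 kept their sign and their side of the threshold, and 33 changed sign, all of markers whose 95% interval included 0. By replicate number, no paired analysis was possible because control replicates are numbered 5 to 8 and mixture replicates 1 to 4. Each of the 4 slide rows held 1 control and 1 mixture array, and the fit with slide row in place of column, which pairs them, gave 0 genes past the threshold and an unadjusted p of 0.0197 (adjusted p 1.000) for Ccl5 in limma.

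Signs turned for Clec4f with an offset of 16 (-0.032), without background correction (-0.026), with processed signals (-0.11), with the deposited values (-0.067) and within column 2 (-0.074). Cd163 turned with processed signals (-0.054), in Cy5 alone (-0.010) and within column 2 (-0.12), and Gzma in Cy5 alone (-0.0072) and within column 2 (-0.10). C1qa turned with median centring (0.041), in Cy5 alone (0.17) and within column 1 (0.085), and C1qb in Cy5 alone (0.14). Within column 1 Cd3d was 0.040 and Nkg7 -0.017, and within column 2 Marco was -0.010. Leaving out 1 array gave -0.059 to 0.15 for Cd163, -0.036 to 0.42 for Marco, -0.034 to 0.091 for Clec4f, -0.041 to 0.074 for C1qa, -0.083 to 0.038 for Cd3d and -0.11 to 0.16 for Gzma.

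The median of the lymphocyte markers was 0.13 with processed signals. Leaving out 1 array gave medians of 0.072 to 0.21 for macrophage, 0.0055 to 0.096 for lymphocyte and -0.66 to -0.24 for neutrophil markers. Of the 14 macrophage markers, 9 to 13 were above 0 over the alternatives, and the 3 neutrophil markers were below 0 in each. The count of 5 genes past the threshold was 0 with processed signals (860 at an unadjusted p under 0.05 in limma), 0 with slide row in place of column (76), 0 within column 2 (591), 1 without slide column (162), 2 within column 1, 3 with median centring, with detection on all 8 arrays or with a trended robust variance, and 14 in Cy5 alone. It was 1 without control replicate 5 or mixture replicate 3 or 4, and 2 without control replicate 6 or 8 or mixture replicate 1. Leaving out control replicate 7 gave 8, and leaving out mixture replicate 2 gave 11, so that it ranged from 1 to 11. The causes of these changes were not tested. With detection on all 8 arrays, Prf1 and Cd79b had no value.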

Other observations

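Lists of other liver cells were measured on the same arrays, and none of their genes passed the adjusted threshold. Of 21 erythroid genes 9 were tested, 7 above 0, with a median of 0.10. Their mean level was 4.77 to 5.19 on control arrays and 4.79 to 5.19 on mixture arrays, with Hba-a1 of haemoglobin at -0.052 (SE 0.11) and the globin chaperone Ahsp at 0.17 (SE 0.12). Of 10 platelet and megakaryocyte genes 2 were tested, with the platelet chemokine Pf4 at 0.16 (SE 0.11).

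Of 12 sinusoidal endothelial genes 6 were tested, 3 on either side of 0, with a median of -0.0047. The growth factor receptor Kdr differed by 0.015 (SE 0.090) and the Fc receptor Fcgr2b by 0.058 (SE 0.065). Of 11 stellate cell genes 8 were tested, 4 on either side of 0, with the collagen Col3a1 at 0.059 (SE 0.13) and Ecm1 at -0.30 (SE 0.11, limma unadjusted p = 0.0280, adjusted p = 0.712). Ecm1 was -0.039 in column 1 and -0.55 in column 2. Des, picked after its value was seen, was higher by 0.19 (SE 0.084, limma unadjusted p = 0.0454, adjusted p = 0.779). Des was detected on 5 of the 8 arrays and so entered the test through 1 group only, and its difference is not support for a change. Of 8 cholangiocyte genes 4 were tested, with the keratin Krt19 at -0.027 (SE 0.13) and the adhesion gene Epcam at 0.058 (SE 0.075). Of 13 spleen and pancreas genes Ins2 alone was tested, at -0.22 (SE 0.22), and its log2 ratio was 0.87 to 0.98 on control arrays and 0.21 to 1.65 on mixture arrays. Ins2 was detected on 6 of the 8 arrays. Of the pancreas genes not tested, Cpa1 and Ctrb1 were detected on 3 arrays each, Prss1, Cela3b and Amy2a3 on 2 each, and Cela1, Pnlip and Ins1 on 1 each. The spleen genes Nkx2-5 and Tlx1 were detected on no array. Whether pancreas RNA was present in some of the liver pools was not tested.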
